A study of Drosophila melanogaster with 34 samples.

Results

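The heat shock genes described here are 10 named genes of *Drosophila melanogaster* whose products are chaperones or chaperone partners, out of 16495 genes in the count table. They were listed by name, as genes usually read as the inducible heat shock response, with earlier results of these data known. They comprise the small heat shock genes *Hsp22*, *Hsp23*, *Hsp26*, *Hsp27* and *Hsp67Bc*, the *Hsp70* family genes *Hsp68* and *Hsp70Ba*, the *Hsp90* gene *Hsp83*, the J-domain gene *DnaJ-1* and the BAG-domain gene *stv* (*starvin*).

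The heat shock response protects cells whose proteins misfold. Heat shock factor, a transcription factor, binds elements in front of these genes when unfolded proteins occupy the chaperones that hold it inactive. Small heat shock proteins share the alpha-crystallin domain and keep damaged proteins from aggregating, Hsp70 proteins refold them with ATP, J-domain and BAG-domain partners start and end the Hsp70 cycle, and Hsp90 matures signalling proteins. Heavy metals are textbook inducers of the response, and several small heat shock genes are also switched on in development and in the ovary without stress.

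RNA was sequenced from whole mated females of 6 strains inbred for 20 generations, of which 3 were classed as tolerant of copper (MUN-008, MUN-020 and GIM-012) and 3 as sensitive to it (COR-018, JUT-008 and AKA-018). Copper-treated females, aged 3 to 7 days by the sample descriptions, had 24 h of contact with and feeding on 20 mM copper sulphate in 5% sucrose, and control females had the same solution with no copper. Each library was made from 20 females as a separate biological repeat, with 3 libraries per strain and treatment except for 2 control libraries in each of AKA-018 and MUN-020, so that each class had 9 copper and 8 control libraries. The stocks were kept at 25 °C, each strain stands for 1 inbred genotype, and the authors took dead females out of JUT-008 and COR-018 samples before extraction, so that the copper libraries of those strains hold survivors.

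The libraries held 22796637 to 42567920 counted reads (median 35393968). By its label the count table had males taken out before it was deposited. Whether this concerned libraries, genes or reads is not given in the sources used here. The table holds 34 libraries. It has rows for 4 of 16 listed accessory gland genes, 9 of 14 testis genes and 8 of 10 ovarian germline genes. All listed eggshell, yolk, midgut, haemocyte and muscle genes have rows. The male sums below are those of genes left in the table, and male RNA of genes without a row was not measured. Transcripts of the male accessory gland, with 4 of 16 listed genes in the table and the other 12 not analysed here, summed to over 1 CPM (the TMM-normalized count per 1000000 reads) in 9 of 17 libraries of sensitive strains and in 0 of 17 libraries of tolerant strains. In those 9 libraries the sum was 2.64 to 53.2 CPM, and in all others it was at most 0.131 CPM. Testis transcripts (9 of 14 listed in the table) summed to 22.7 to 104 CPM in the same 9 libraries and to at most 0.485 CPM in the others, except for 1.22 to 2.74 CPM in the 6 libraries of MUN-008, a tolerant strain. The 2 lists did not scale together, since copper replicate 3 of COR-018 had 65.6 CPM of testis and 4.79 CPM of accessory gland transcripts, against 58.2 and 47.0 CPM in control replicate 4. AKA-018 differed by treatment, with 0 to 0.0954 CPM of accessory gland transcripts in its 3 copper libraries and 20.9 to 36.9 CPM in its 2 control libraries.

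Transcripts of female tissues moved with copper as well (none of the genes in the table at 0). Sums of eggshell transcripts (11 listed) were lower in all copper libraries than in any control library of every strain but GIM-012, by most in COR-018, with 9.16 to 24.7 CPM with copper and 1807 to 5891 CPM in control females. Midgut transcripts (10 listed) were lower without overlap in COR-018, AKA-018 and MUN-020 and higher in GIM-012, and muscle transcripts (7 listed) were lower in COR-018, JUT-008 and MUN-020. Yolk transcripts (3 listed) were lower in COR-018, JUT-008, AKA-018 and MUN-020 and higher in GIM-012. In COR-018 muscle transcripts summed to 1288 to 1656 CPM with copper and 2721 to 4011 CPM in control females, and midgut transcripts to 953 to 1309 and 2162 to 3064 CPM. Ranges in AKA-018, JUT-008 and GIM-012 stand beside the genes below, and the part of these tissues in the values was not tested. In whole flies, fewer cells of a type and less RNA per cell cannot be told apart.

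Of the 10 genes, 5 lie within 14184 bp of chromosome arm 3L (positions 9371511 to 9385694 of the BDGP6 assembly, also called dm6), a stretch with 10 annotated genes. *Hsp67Bc* lies at 9371511 to 9372497 on the reverse strand, *Hsp22* at 9372931 to 9374964 on the forward strand, *Hsp26* at 9376418 to 9377427 on the reverse strand, *Hsp23* at 9381882 to 9382765 and *Hsp27* at 9384063 to 9385694, both on the forward strand. The others are apart from this stretch and from each other. *Hsp83* (3192969 to 3197059, forward), *DnaJ-1* (5750029 to 5752189, reverse) and *stv* (13477541 to 13483515, forward) are also on 3L, whereas *Hsp70Ba* (12465453 to 12467776, reverse) and *Hsp68* (24055080 to 24057310, reverse) are on 3R. The exons of 7 of the 10 genes form a single block, those of *Hsp83* form 2, those of *Hsp22* form 3, and those of *stv* form 5 over 7 annotated transcripts.

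*Hsp22*, whose product is a mitochondrial small heat shock protein, had 0 counts in each of the 34 libraries. All of its 1900 exon bp are shared, on the same strand, with *CG4456* (formerly *Hsp67Bb*), and the authors discarded reads that overlapped more than 1 gene, so the table holds no measure of *Hsp22* at all. *CG4456*, with 90.1% of its exon bp shared, is affected in the same way. None of the other 9 genes shares exon sequence with a gene on its own strand. Tests below are therefore over at most 9 of the 10 genes.

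Levels of these 9 genes span a wide range per kb of exon. Over the 12 combinations of strain and treatment, the group means of *Hsp83* were 825 to 1782 CPM per kb, the highest of the set. *Hsp26* followed with 312 to 672 CPM per kb, and *Hsp27* (39.9 to 293 CPM per kb) and *DnaJ-1* (54.9 to 166 CPM per kb) were in the middle. Means of *Hsp23* were 4.96 to 72.7, of *stv* 12.2 to 22.5, of *Hsp68* 2.52 to 32.2 and of *Hsp67Bc* 1.75 to 4.61 CPM per kb, and *Hsp70Ba* never exceeded 1.85 CPM per kb. The level of every gene except *Hsp70Ba* was thus above 1 CPM per kb in every group, control groups included. Reads of *Hsp70Ba* that also mapped to its nearly identical copies were discarded, so that its value is a partial count.

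**Figure D1:**
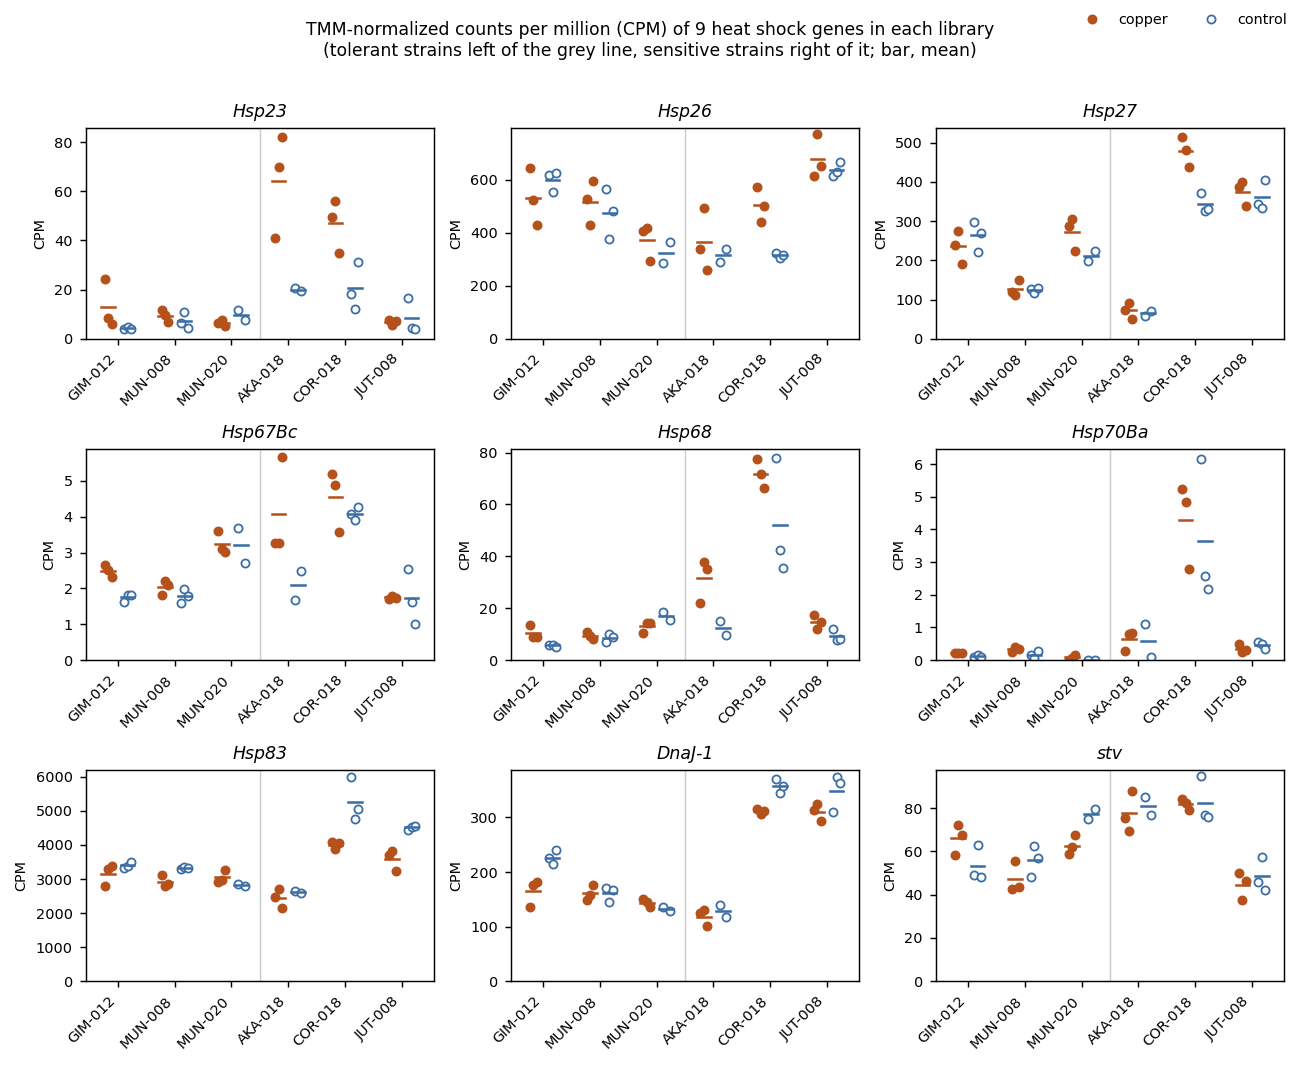
TMM-normalized CPM of 9 heat shock genes (linear axis from 0) in each of the 34 libraries, with copper libraries as filled points left of the control libraries (open points) of the same strain and bars at the means. Copper libraries of *Hsp23* and *Hsp68* lay above the control libraries in some strains and overlapped or lay below them in others. The levels of *Hsp27*, *Hsp68*, *Hsp83* and *DnaJ-1* separated some strains from others in both treatments, while other strains overlapped.

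The first comparison asked whether 24 h of copper changed these genes in tolerant strains. None of the 9 tested genes was a differentially expressed gene, or DEG (fold change over 1.5 and adjusted *p* below 0.05 in edgeR's quasi-likelihood test with strain as a term), beside 1.53% of the 11602 genes tested. At an unadjusted *p* below 0.05 there were 2 of 9, *Hsp67Bc* and *Hsp70Ba*, beside 1369 of all 11602 genes, and DESeq2 also called 0 of the 9 as DEGs. The median log2 fold change of the 9 genes was 0.04, against -0.00 over all genes tested. Of the 9 genes 6 were above and 3 below 0, beside 5681 above and 5921 below over all genes. Samples were taken at 24 h only, so earlier levels were not measured.

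In sensitive strains 1 of the 9 genes was a DEG, *Hsp68*, beside 7.75% of the 12308 genes tested and 1.81% called higher. *Hsp68*, a stress-inducible relative of *Hsp70*, was 1.72-fold higher with copper (log2 fold change 0.78 ± 0.19 SE, adjusted *p* = 0.00934). At an adjusted *p* below 0.05 with no fold-change threshold, *Hsp83* (-0.29 ± 0.06, adjusted *p* = 0.00363) and *DnaJ-1* (-0.17 ± 0.06, adjusted *p* = 0.0452) were lower in addition, so that 3 of 9 passed beside 25.3% of all genes. *Hsp26* (0.34 ± 0.12, adjusted *p* = 0.0515) and *Hsp23* (0.86 ± 0.35, adjusted *p* = 0.0821) did not pass, although DESeq2 called *Hsp23* (adjusted *p* = 0.0363). The median of the 9 genes was 0.24, against -0.02 over all genes tested.

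**Figure D2:**
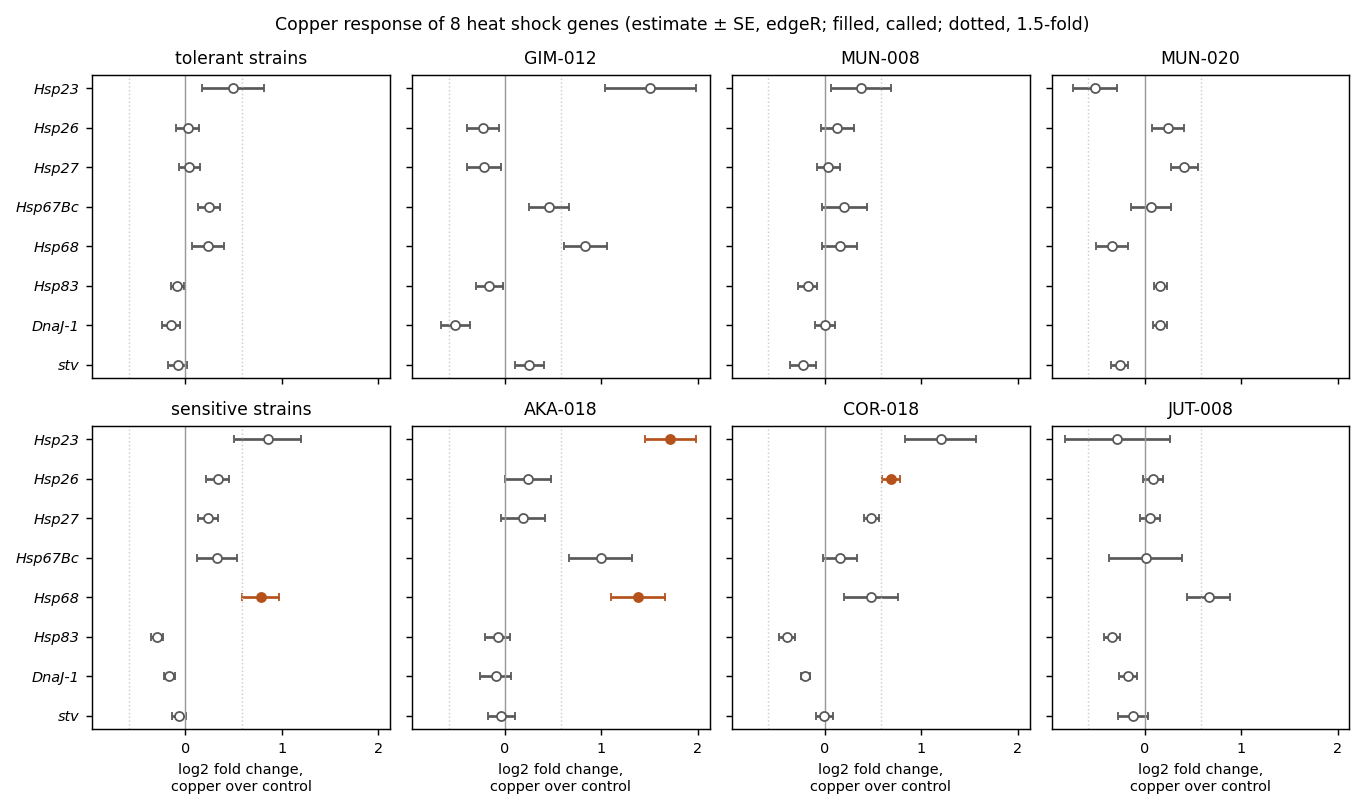
Log2 fold change of copper over control (± SE, edgeR) for 8 heat shock genes in each class (left column) and in each strain, with DEGs filled and dotted lines at 1.5-fold. *Hsp70Ba* is left out because it was too low to be tested in the 3 tolerant strains alone; DEGs were *Hsp68* in sensitive strains, *Hsp23* and *Hsp68* in AKA-018 and *Hsp26* in COR-018.

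Among the small heat shock genes, *Hsp23* had the largest responses and the least uniform ones. In AKA-018 it had 41.0, 69.8 and 82.0 CPM with copper, against 20.6 and 19.3 CPM in control females. In COR-018 it had 49.7, 56.0 and 35.0 CPM with copper, against 18.2, 12.0 and 31.3 CPM in control females. In both strains all copper libraries were above all control libraries, by 3.28-fold in AKA-018 (log2 fold change 1.71 ± 0.27, adjusted *p* = 0.00322, a DEG beside 6.43% of genes in that strain) and by 2.30-fold in COR-018 (1.2 ± 0.37, adjusted *p* = 0.0591, not a DEG, beside 10.4%). In AKA-018 eggshell transcripts summed to 966 to 1456 CPM with copper and 4276 to 4932 CPM in control females, midgut transcripts to 2380 to 3170 and 4689 to 5185 CPM, and yolk transcripts to 10910 to 11138 and 14052 to 17220 CPM, and their part in the value of *Hsp23* was not tested.

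In the third sensitive strain, JUT-008, the treatments overlapped. It had 7.76, 5.74 and 7.39 CPM of *Hsp23* with copper, against 16.5, 4.59 and 4.13 CPM in control females (-0.28 ± 0.54, adjusted *p* = 0.815). The single control library at 16.5 CPM, replicate 1, lay above every copper library of the strain, and the other 2 lay below all of them. Without that library the estimate in JUT-008 was 0.71, of the opposite sign (adjusted *p* = 0.257), and the strain was not tested against AKA-018 or COR-018 alone. Without it *Hsp23* also passed as a DEG of sensitive strains (1.23, adjusted *p* = 0.00169), as it did without the whole strain (1.42, adjusted *p* = 0.0129). The library had the highest sums of male accessory gland and testis transcripts of all libraries, 53.2 and 104 CPM, and whether this bears on *Hsp23* was not tested. Eggshell transcripts of JUT-008 summed to 905 to 1206 CPM with copper and 3779 to 4750 CPM in control females, and muscle transcripts to 807 to 1126 and 1354 to 1627 CPM.

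In tolerant strains *Hsp23* had 4.09 to 24.3 CPM, and its copper responses were mixed in direction. All libraries of JUT-008, a sensitive strain, lay within that range. GIM-012 had 24.3, 8.54 and 6.09 CPM with copper, against 4.12, 4.95 and 4.09 CPM in control females, so that all copper libraries were higher while the fold change (1.51 ± 0.47, adjusted *p* = 0.0833) leaned on the library at 24.3 CPM. Without that library the estimate was 0.69 and passed (adjusted *p* = 0.0406), and without the copper library at 6.09 CPM it was 1.84 (adjusted *p* = 0.0388). In this strain midgut transcripts summed to 4036 to 4273 CPM with copper and 2156 to 3340 CPM in control females, and yolk transcripts to 10640 to 14306 and 4777 to 9222 CPM. MUN-008 had 11.7, 9.84 and 6.73 CPM with copper and 6.40, 10.8 and 4.58 CPM without, and MUN-020 had 6.40, 7.87 and 5.33 CPM with copper and 11.7 and 7.55 CPM without. The libraries of the 2 treatments overlapped in both of these strains.

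*Hsp26*, a small heat shock gene with strong expression in the ovary, was a DEG in COR-018 and was not shown to differ in response between strains (strain by treatment test, adjusted *p* = 0.184). COR-018 had 571, 440 and 503 CPM with copper, against 322, 306 and 316 CPM in control females, a 1.6-fold increase (0.68 ± 0.09, adjusted *p* = 0.00765, a DEG). The lowest copper library was well above the highest control library. In the other 5 strains the libraries of the treatments overlapped, with log2 fold changes of -0.23 to 0.24, below 0 in GIM-012 alone, for example 644, 524 and 428 CPM with copper and 620, 552 and 626 CPM without in GIM-012.

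*Hsp27*, which lies next to *Hsp23* and is expressed in the female germline, rose in the same strain by a smaller amount. In COR-018 it had 515, 481 and 439 CPM with copper, against 372, 325 and 331 CPM in control females (1.4-fold, 0.48 ± 0.08, adjusted *p* = 0.0115, under the fold-change threshold). MUN-020, a tolerant strain, had 286, 306 and 223 CPM with copper, against 198 and 223 CPM in control females (0.41 ± 0.14, adjusted *p* = 0.0865). The lowest copper library there met the level of the higher control library, and in the remaining 4 strains the log2 fold changes were -0.22 to 0.19. Ovarian germline transcripts (8 of 10 listed in the table) summed to 1584 to 1696 CPM in copper libraries of COR-018 and 1626 to 1989 CPM in its control libraries, which overlapped. The part of these and of the eggshell, muscle and midgut transcripts given above in the values of *Hsp26* and *Hsp27* was not tested.

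*Hsp67Bc*, whose product works with starvin in selective autophagy, was low throughout, at 1.00 to 5.66 CPM. Its estimates were above 0 in 6 of 6 strains, between 0.01 and 0.99. The copper libraries lay above the control libraries in GIM-012 (2.66, 2.5 and 2.33 CPM with copper, 1.61, 1.82 and 1.81 CPM without) and in AKA-018 (3.28, 3.28 and 5.66 CPM with copper, 1.67 and 2.49 CPM without). Neither was a DEG (adjusted *p* = 0.175 in GIM-012 and 0.152 in AKA-018), nor was the gene one in tolerant (0.25 ± 0.11, adjusted *p* = 0.381) or sensitive strains (0.33 ± 0.20, adjusted *p* = 0.242).

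*CG4461* and *Hsp67Ba*, further small heat shock genes of the 3L stretch, had estimates below 0 in all 3 sensitive strains. *CG4461*, between *Hsp22* and *Hsp26*, was lower with copper in COR-018, with 61.0, 47.1 and 54.3 CPM against 72.5, 84.99 and 80.1 CPM in control females (-0.55 ± 0.11, adjusted *p* = 0.018). *Hsp67Ba*, between *Hsp26* and *Hsp23*, had 3.998, 3.43 and 4.06 CPM with copper in that strain, against 5.58, 4.57 and 5.29 CPM in control females, without overlap (-0.42 ± 0.14, adjusted *p* = 0.0744). In the same libraries *Hsp26*, *Hsp23* and *Hsp27* were all above their control libraries. In sensitive strains as a class *CG4461* was lower (-0.50 ± 0.12, adjusted *p* = 0.00672, under 1.5-fold), and *Hsp67Ba* was at -0.27 ± 0.10 (adjusted *p* = 0.0559). *CG4461* was also lower in MUN-020, a tolerant strain (-0.51 ± 0.07, adjusted *p* = 0.00925), and both genes had estimates above 0 in GIM-012 (0.59 ± 0.26 and 0.36 ± 0.23). Both genes were picked for mention because of their position and after their values were seen.

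*Hsp68* was the only gene of the set called in a class. In AKA-018 it had 21.9, 37.9 and 35.0 CPM with copper, against 15.1 and 9.65 CPM in control females, a 2.6-fold increase (1.38 ± 0.28, adjusted *p* = 0.014, a DEG), beside the changes in eggshell, midgut, yolk and male transcripts of that strain given above. In JUT-008 it had 17.3, 11.9 and 14.7 CPM with copper, against 11.8, 7.87 and 7.98 CPM in control females (0.66 ± 0.22, adjusted *p* = 0.185). Copper libraries were above control libraries in both strains, with only a narrow gap in JUT-008.

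In COR-018 the levels of *Hsp68* were the highest of the study in both treatments, with 77.4, 71.8 and 66.4 CPM with copper and 77.8, 42.3 and 35.6 CPM without. The treatments overlapped only through control replicate 1, and without it the estimate of 0.48 became 0.88 and passed as a DEG (adjusted *p* = 0.0135). The class call held without any single library (0.66 to 0.95 over 17 omissions). It did not hold without AKA-018 (0.55, adjusted *p* = 0.0483, under 1.5-fold), without JUT-008 (0.85, adjusted *p* = 0.074), or without the 9 libraries with accessory gland transcripts (0.32, adjusted *p* = 0.563), an omission that takes away both AKA-018 controls and was added after the data were seen.

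In the tolerant strains the estimates of *Hsp68* were of both signs. GIM-012 had 13.6, 8.84 and 8.76 CPM with copper, against 5.94, 5.89 and 5.06 CPM in control females (0.83 ± 0.22, adjusted *p* = 0.0593; DESeq2 gave an adjusted *p* of 0.00868). MUN-020 had 10.4, 14.4 and 14.3 CPM with copper, against 18.6 and 15.3 CPM in control females (-0.34 ± 0.17, adjusted *p* = 0.207). All copper libraries were thus above the controls in GIM-012 and below them in MUN-020, and in MUN-008 the treatments overlapped (0.16 ± 0.18).

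*Hsp83* encodes the fly Hsp90, which is abundant without stress, especially in the ovary. With copper it was lower in COR-018, with 4100, 3884 and 4052 CPM against 6010, 4756 and 5055 CPM in control females (-0.39 ± 0.08, adjusted *p* = 0.0218). In JUT-008 it had 3701, 3814 and 3223 CPM with copper, against 4454, 4535 and 4557 CPM in control females (-0.34 ± 0.08, adjusted *p* = 0.0685). The treatments did not overlap in either strain, and neither change reached 1.5-fold. In MUN-008 copper libraries were also all lower (3114, 2782 and 2854 CPM against 3292, 3350 and 3317 CPM; -0.18 ± 0.10, adjusted *p* = 0.616), whereas in MUN-020 they were all higher (2917, 2982 and 3261 CPM against 2847 and 2785 CPM; 0.16 ± 0.07, adjusted *p* = 0.142).

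*DnaJ-1*, the J-domain partner of Hsp70, was lower in COR-018 as well, with 316, 306 and 312 CPM with copper and 371, 345 and 358 CPM without (-0.20 ± 0.05, adjusted *p* = 0.0267). Its largest estimate was in a tolerant strain, GIM-012, where it had 135, 176 and 182 CPM with copper, against 225, 214 and 240 CPM in control females (-0.51 ± 0.15, adjusted *p* = 0.0737). Ovarian germline transcripts summed to 1604 to 1735 CPM in copper libraries of GIM-012 and 2602 to 3741 CPM in its control libraries, and their part in this was not tested. In MUN-020 the copper libraries were above the control libraries, at 150, 145 and 137 CPM against 136 and 129 CPM (0.16 ± 0.08, adjusted *p* = 0.182). Whether the tolerant strains differ from each other was not tested.

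*stv*, the BAG-domain cochaperone that assists Hsp70 in muscle, varied little with copper. Its log2 fold change was below 0 in 5 of 6 strains and ranged from -0.26 to 0.25 with no DEG. The treatments did not overlap in MUN-020 alone, where it had 58.8, 61.8 and 67.4 CPM with copper, against 75.1 and 79.7 CPM in control females (-0.26 ± 0.08, adjusted *p* = 0.0759). In GIM-012 the estimate was of the other sign, 0.25 ± 0.15.

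Non-overlapping libraries are frequent in groups this small. Of the tested heat shock genes, copper libraries were all higher or all lower than control libraries for 4 of 8 in GIM-012 (beside 38.0% of all genes), 1 of 8 in MUN-008 (14.7%), 4 of 8 in MUN-020 (53.1%), 3 of 9 in AKA-018 (24.9%), 5 of 9 in COR-018 (50.2%) and 2 of 9 in JUT-008 (23.9%). DEGs numbered 0 of 8 in GIM-012 (beside 5.62% of all genes), 0 of 8 in MUN-008 (1.14%), 0 of 8 in MUN-020 (4.22%) and 0 of 9 in JUT-008 (4.11%). With edgeR, 3, 0, 3 and 2 of these genes had an unadjusted *p* below 0.05 in GIM-012, MUN-008, MUN-020 and JUT-008. Over all genes the numbers at that threshold were 3434 of 11068, 1099 of 10775, 3703 of 11136 and 2040 of 11021 in these strains. DESeq2 called *Hsp23* and *Hsp68* in GIM-012. AKA-018 had 2 control libraries, so that omitting either left a control arm of 1 library, assumed to vary like the copper libraries. Without control replicate 4 *Hsp23* was at 1.66 (adjusted *p* = 0.13) and *Hsp68* at 1.09 (adjusted *p* = 0.259), and without control replicate 3 *Hsp23* was at 1.80 (adjusted *p* = 0.0556), so that these calls were lost while the estimate of *Hsp23* stayed close to 1.71. Both of those control libraries had the male, eggshell and midgut sums given above, and the part of these in the calls was not tested.

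The class by treatment term asked whether tolerant and sensitive strains responded differently. It was past the threshold for 0 of the 9 genes, beside 4.13% of 12511 genes. The lowest adjusted *p* belonged to *Hsp83* (tolerant minus sensitive 0.22 ± 0.08, adjusted *p* = 0.129), and it passed without AKA-018 (0.29, adjusted *p* = 0.0427). *Hsp83* was the 1 gene of the 9 with an unadjusted *p* below 0.05, beside 2671 of all 12511 genes. DESeq2 also called 0 of the 9. For *Hsp68* the difference was -0.54 ± 0.26 (adjusted *p* = 0.237) and for *Hsp23* -0.33 ± 0.50 (adjusted *p* = 0.732). The response of *Hsp68* was therefore not shown to differ between the classes.

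A test over the 6 strains, which asked whether any of them responded differently from another, called 3 of the 9 genes, beside 30.1% of all genes. They were *Hsp68* (F = 4.5, adjusted *p* = 0.0212), *Hsp83* (F = 4.10, adjusted *p* = 0.0298) and *Hsp23* (F = 3.67, adjusted *p* = 0.0432), and *DnaJ-1* was next (adjusted *p* = 0.0706). The fitted responses of *Hsp23* spanned 2.25 on the log2 scale between the extreme strains, those of *Hsp68* 1.74 and those of *Hsp83* 0.51. The share of these genes called was close to that of all genes. The call of *Hsp23* was lost in 21 of 34 omissions of a single library, that of *Hsp83* in 5 and that of *Hsp68* in 2, and the highest adjusted *p* without a library was 0.118, 0.0775 and 0.0848 for *Hsp23*, *Hsp83* and *Hsp68*.

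When the 6 strains were taken as the replicates, an exact permutation test of the strain differences (two-sided, smallest possible *p* = 0.1) gave *p* = 0.1 for *Hsp70Ba* and 0.3 to 1 for the other 8 genes. For *Hsp70Ba* the difference of copper and control was higher in all 3 tolerant strains than in any sensitive strain, with class means of 1.30 and 0.20 on the log2 scale. After adjustment over the 9 genes so tested the *p* was 0.9. This design cannot pass 0.05. The lowest tolerant strain, GIM-012 at 0.79, was close to the highest sensitive one, AKA-018 at 0.71. Both control libraries of MUN-020 had 0 counts, so that its value depends on the prior count, and with a prior count of 2 the class difference was 0.67 in place of 1.10.

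For these genes the spread among strains without copper was wider than the differences between copper and control within a strain. In control libraries all 9 genes differed among the 6 strains, beside 81.7% of all genes, a share so high that the count carries little about heat shock genes as such. The range of strain means over the 8 genes other than *Hsp22* and *Hsp70Ba* had a median of 1.36 on the log2 scale, against 1.00 over the 12217 genes tested. For each of these 8 genes the range was larger than the largest copper change in any strain, as it was for 90.1% of the 10243 genes tested in all of these fits, for example 3.20 against 1.38 for *Hsp68*, 2.47 against 0.48 for *Hsp27* and 1.48 against 0.51 for *DnaJ-1*.

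**Figure D3:**
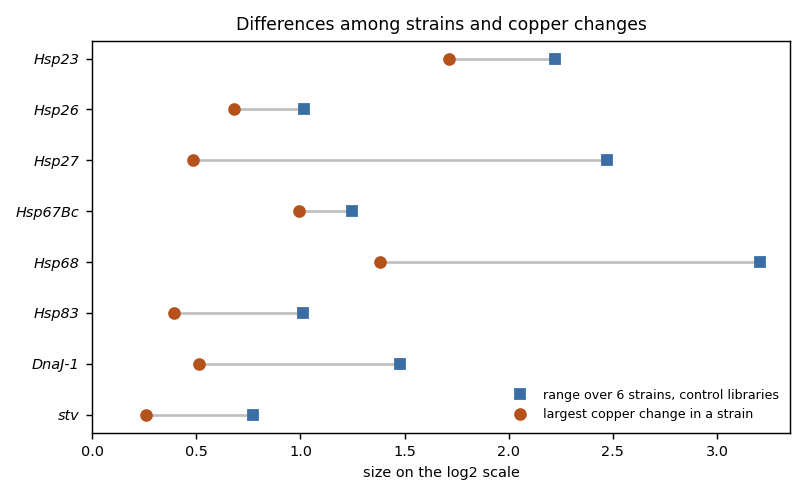
Range of strain levels in control libraries (squares) and the largest copper change in any 1 strain (circles), both as sizes on the log2 scale, for 8 heat shock genes. The square lies to the right of the circle for every gene, with the widest gap for *Hsp27* (2.47 against 0.48) and the narrowest for *Hsp67Bc* (1.25 against 0.99).

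The order of the strains differed between genes. *Hsp68* in control females averaged 51.9 ± 22.7 CPM in COR-018 (SD, n = 3) and 5.63 ± 0.497 CPM in GIM-012 (SD, n = 3), a 9.22-fold span, and COR-018 was apart from MUN-020, the next strain, in every library. *Hsp23* was highest in COR-018 and AKA-018, which overlapped (20.5 ± 9.87 and 19.9 ± 0.915 CPM), and lowest in GIM-012 (4.39 ± 0.485 CPM), with AKA-018 apart from MUN-020 and no other neighbours apart. *Hsp27* was highest in JUT-008 and COR-018, which overlapped (360 ± 37.8 and 343 ± 25.5 CPM), and lowest in AKA-018 (65.1 ± 8.97 CPM), which was apart from every other strain. AKA-018 was thus among the highest strains for *Hsp23* and the lowest for *Hsp27*, genes whose ends lie close together on 3L.

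For the other genes COR-018 was mostly at the top. *Hsp83* averaged 5273 ± 655 CPM in COR-018 and 4515 ± 54.4 CPM in JUT-008, each apart from the next strain, and 2621 ± 35.1 CPM in AKA-018. *DnaJ-1* had 358 ± 12.9 CPM in COR-018 and 349 ± 34.2 CPM in JUT-008, which overlapped and were apart from GIM-012 (227 ± 12.9 CPM), and 129 ± 16 CPM in AKA-018. *Hsp67Bc* was highest in COR-018 (4.09 ± 0.172 CPM) and lowest in JUT-008 (1.73 ± 0.779 CPM). *stv* was highest in COR-018 (82.5 ± 10.6 CPM), where it overlapped AKA-018 and these overlapped MUN-020, and lowest in JUT-008 (48.4 ± 8.0 CPM). *Hsp26* was the exception, with JUT-008 (637 ± 26.6 CPM) above and COR-018 (315 ± 8.13 CPM), AKA-018 (315 ± 36.4 CPM) and MUN-020 (325 ± 54.3 CPM) together at the bottom.

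Control replicate 1 of COR-018 was the highest of the 8 sensitive control libraries for *Hsp68* (77.8 CPM), *Hsp83* (6010 CPM), *Hsp70Ba* (6.17 CPM) and *stv* (94.7 CPM), and not for the other 5 genes, *Hsp23*, *Hsp26*, *Hsp27*, *Hsp67Bc* and *DnaJ-1*. Its sum of male accessory gland transcripts was 0.127 CPM.

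Between the classes without copper, 1 of the 9 genes was a DEG, *Hsp70Ba*, beside 5.36% of 12217 genes and 4.95% called lower in tolerant strains. This fit had no strain term, so that libraries of the same strain counted as separate replicates of its class. *Hsp70Ba*, 1 of the stress-inducible Hsp70 copies and close to silent without stress, was lower in tolerant strains (log2 fold change -3.96 ± 0.84, adjusted *p* = 0.0108). The estimates of 8 of the 9 genes were below 0, beside 7280 of all 12217 genes (median -0.50, against -0.04 over all genes). Among the 8 were *Hsp68* (-1.45 ± 0.49, adjusted *p* = 0.115), *Hsp23* (-1.22 ± 0.38, adjusted *p* = 0.0764) and *DnaJ-1* (-0.73 ± 0.24, adjusted *p* = 0.0911), and *Hsp26* was the exception (0.16 ± 0.22). The estimate of *Hsp68* rested on COR-018 and was -0.11 without it (adjusted *p* = 0.999), whereas DESeq2 called *Hsp68* (adjusted *p* = 0.029) and *Hsp23* (adjusted *p* = 0.0188) in addition. With the 6 strains as replicates, an exact permutation test of control levels gave *p* = 0.4 for *Hsp68* and *DnaJ-1* and 0.3 for *Hsp23*. For *Hsp70Ba* it gave 0.1, the smallest possible value. For no gene of the 9 were the libraries of the classes free of overlap (0.196% of all genes).

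The call of *Hsp70Ba* came from few reads. Control libraries of GIM-012 had 4, 7 and 4 counts, those of MUN-008 had 5, 2 and 6, and those of MUN-020 had 0 and 0. Among sensitive strains AKA-018 had 36 and 3 counts, JUT-008 had 15, 14 and 11, and COR-018 had 76 to 242. COR-018 was far above all others, and AKA-018 overlapped the tolerant strains. Without COR-018 the estimate was -2.22 (adjusted *p* = 0.103). Without GIM-012 (-4.09, adjusted *p* = 0.148) and without MUN-008 (-4.44, adjusted *p* = 0.0917) the estimates were as large but did not pass, and among all genes tested only 6 and 21 then passed, against 655 with all strains. With counts summed per strain, so that strains were the replicates, it was -3.98 with an adjusted *p* of 0.237. Without the 9 libraries with accessory gland transcripts it was still a DEG (-4.81, adjusted *p* = 0.0183). The fitted value also depends on the handling of the 2 libraries with 0 counts.

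With copper the unique counts of *Hsp70Ba* stayed low. GIM-012 had 8, 7 and 8 counts (0.221, 0.208 and 0.209 CPM) with copper, against 0.104, 0.161 and 0.0941 CPM in control females, and MUN-008 had 0.255, 0.392 and 0.339 CPM with copper, against 0.162, 0.0746 and 0.262 CPM in control females. In COR-018 it had 5.25, 4.84 and 2.80 CPM with copper, against 6.17, 2.59 and 2.17 CPM in control females. The tolerant class estimate was 1.10 ± 0.41 (adjusted *p* = 0.243) and the sensitive one -0.03 ± 0.37 (adjusted *p* = 0.967). The treatments overlapped in all strains but GIM-012, where the levels are those of fewer than 10 reads per library.

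Counts of single *Hsp70* copies are uncertain, because the 6 copies are nearly identical and the authors discarded reads that mapped to more than 1 place. The uniquely counted reads of the 6 copies together made 23.9 ± 4.84 CPM with copper and 20.4 ± 9.46 CPM without in COR-018, 11.6 ± 5.35 and 7.48 ± 0.542 CPM in JUT-008, and 3.63 ± 1.37 and 2.18 ± 1.67 CPM in AKA-018 (SD, n = 3, and n = 2 in AKA-018 controls). In tolerant strains the sums averaged 1.05 to 1.66 CPM in all 6 groups. In these uniquely counted reads COR-018 and JUT-008 were therefore above all tolerant strains in both treatments. The sum also leaves out the multi-mapping reads, and how large a part of the *Hsp70* reads it holds in each strain was not measured. A difference in expression therefore cannot be told apart from a difference in that part. The share of *Hsp70Ba* among these reads differed between strains, with 17.9% in control females of COR-018 (433 of 2423 reads; 95% exact binomial interval 16.4 to 19.5%) and 6.14% in those of JUT-008 (40 of 651; 4.43 to 8.27%). These intervals cover counting error only.

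**Figure D4:**
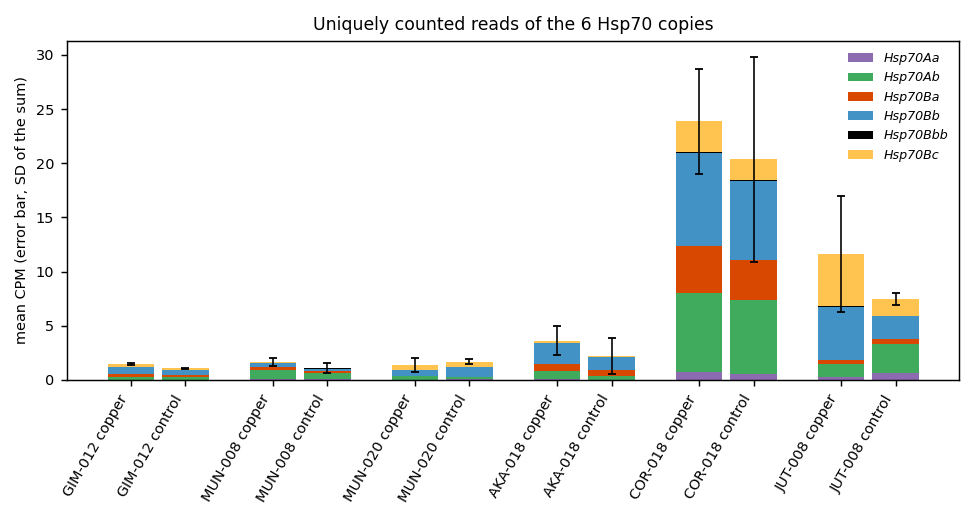
Mean CPM of uniquely counted reads of the 6 *Hsp70* copies, stacked, for copper (left) and control (right) in each strain, with the SD of the sum as error bar (n = 3, and n = 2 for AKA-018 and MUN-020 controls). The sums were 20.4 to 23.9 CPM in COR-018 and 7.48 to 11.6 CPM in JUT-008, and at most 1.66 CPM in the tolerant strains.

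The other *Hsp70* copies were compared in the same way. In control libraries *Hsp70Ab* (-3.22 ± 0.62, adjusted *p* = 0.00874), *Hsp70Bb* (-2.99 ± 0.56, adjusted *p* = 0.00844), *Hsp70Aa* (-3.24 ± 0.89, adjusted *p* = 0.0432) and *Hsp70Bc* (-2.67 ± 0.76, adjusted *p* = 0.0492) were also lower in tolerant strains. COR-018 and JUT-008 were the high strains for all 4, whereas AKA-018 lay within or below the tolerant means for 3 of them, for example at 0.341 CPM of *Hsp70Ab* beside 0.593 CPM in MUN-008. Without GIM-012 and without MUN-008, where few genes passed over the whole table, these 4 calls were lost at estimates of -2.22 to -4.09, and with counts summed per strain at -2.31 to -3.08 (adjusted *p* of 0.205 to 0.767). Omitting a single library ended the call of *Hsp70Aa* in 12 and of *Hsp70Bc* in 13 of 16 cases, and those of *Hsp70Ab* and *Hsp70Bb* in 0. With the 6 copies added up before the fit the estimate was -3.15 (adjusted *p* = 0.00808). With copper *Hsp70Bc* was a DEG of sensitive strains (1.10 ± 0.32, adjusted *p* = 0.0197). JUT-008 had 5.91, 2.93 and 5.71 CPM with copper, against 2.33, 1.27 and 1.06 CPM in control females, with no overlap. It was not a DEG without JUT-008 (0.76, adjusted *p* = 0.229) or without COR-018 (1.47, adjusted *p* = 0.0677), nor without the 9 libraries with accessory gland transcripts (0.73, adjusted *p* = 0.376). When the 6 copies were summed before the fit, the sensitive estimate was 0.51 (adjusted *p* = 0.154).

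A list of 40 other heat shock, chaperone and cochaperone genes in the table, such as the constitutive *Hsc70* genes, the chaperonins and the Hsp90 partners, was compared in the same way. With copper 0 of 35 tested were DEGs in tolerant strains (beside 1.53% over all genes), and 1 of 38, *Hsp70Bc*, in sensitive strains (beside 7.75%). At an unadjusted *p* below 0.05 there were 4 of 35 in tolerant strains, beside 1369 of all 11602 genes. Medians of the list were -0.04 in tolerant and -0.10 in sensitive strains, against -0.00 and -0.02 over all genes. The class by treatment term called 2 of 38 (beside 4.13%), *Hsc70-5*, the mitochondrial Hsp70 (0.27 ± 0.07, adjusted *p* = 0.0324), and *ref(2)P*, the fly p62 autophagy adaptor (-0.22 ± 0.06, adjusted *p* = 0.0316). The first was lost in 17 and the second in 5 of 34 omissions of a single library (highest adjusted *p* 0.0865 and 0.065), and neither passed without COR-018 (adjusted *p* = 0.443 and 0.24). Without copper 8 of 38 were lower in tolerant strains (beside 4.95%), the 4 *Hsp70* copies above and *CG4456*, *Hsp60B*, *HIP* and *CG9920*, the last 4 named after their values were seen. The 4 copies are nearly identical and are not separate results, and *CG4456* shares 90.1% of its exon bp with *Hsp22*. Accessory gland transcripts were over 1 CPM in 2 of 2 AKA-018, 1 of 3 COR-018 and 2 of 3 JUT-008 control libraries, and in 0 of 17 tolerant libraries. The part of male RNA in this count was not tested. *Hsp60B* is known from the testis and is itself in the testis list, so that the testis sums include it. Its level went with the accessory gland transcripts in AKA-018, where it was lower with copper (-9.22 ± 0.53, adjusted *p* = 1.93e-05).

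The gene most like each heat shock gene was taken, outside the 10 genes themselves, as the one with the smallest SD of the difference in log2 CPM over the 34 libraries, among 12511 genes. *Hsp83* was nearest to *Hsp110*, an Hsp70-related chaperone, with an SD of 0.17, and *Hsp70Ba* to *Hsp70Ab* (SD 1.23). The others were nearest to genes outside the heat shock lists, with *stv* to *tn* (SD 0.13), *Hsp26* to *Rad60* (0.20), *DnaJ-1* to *Drep2* (0.28), *Hsp67Bc* to *Dad* (0.38), *Hsp27* to *CG15142* (0.45), *Hsp68* to *lncRNA:CR32636* (0.66) and *Hsp23* to *Cht4* (0.78). Libraries of a strain share its genotype, and once the mean of each strain was subtracted 0 of the 9 kept the same nearest gene. *DnaJ-1* was then nearest to *Hsp110* (SD 0.10).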

How the data were processed

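Raw counts per gene were used as deposited, after the removal of males that the table's label names and no source used here describes. By the submitters' processing notes, the authors trimmed reads with Trim Galore 0.5.0 and cutadapt 1.18, aligned them to dm6 with STAR 2.6 and counted them with featureCounts 1.6.2. The paper's methods state reverse-stranded counting that discarded multi-mapping reads and reads in more than 1 gene. Of 16495 genes 16198 had a symbol in the gene name table, and positions came from the Ensembl annotation.

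Counts were TMM-normalized and tested with edgeR 4.0.16 (R 4.3.3) after filterByExpr, with Benjamini-Hochberg adjustment over all genes tested in a comparison. Fits were made within each class (strain and treatment), within each strain, over all libraries (class by treatment, and strain by treatment) and in control libraries. The fit between classes in control libraries had no strain term. DEGs had an adjusted *p* below 0.05 and a fold change over 1.5, with no fold threshold for the interactions and for differences among strains. Log2 CPM used a prior count of 0.5. Scripts were tested on simulated data.

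The genes and lists were chosen with earlier results of these data known. Named beside the 10 genes were the *Hsp70* copies, listed genes called with copper in a class or for the class by treatment term, and the nearest gene of each. Alternatives were DESeq2 1.42.0, other scalings and filters, a replicate block, omitted libraries or strains and summed counts. Low genes such as *Hsp70Ba* had few counts, and multi-mapping reads of the *Hsp70* copies were not counted.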

Additional observations from a re-analysis of the deposited data

Results flagged for a closer look

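*Hsp23* in copper replicate 1 of GIM-012, at 24.3 CPM, lay far from the other 8 tolerant copper libraries, of which the next had 11.7 CPM. *Hsp70Ba* in control replicate 1 of COR-018, at 6.17 CPM, lay far from the other 7 sensitive control libraries, of which the next had 2.59 CPM. These were 2 of 36 groups of libraries examined in this way. A chance rate of about 1 in 20 holds for libraries of a single population. Each group pooled 3 strains that differ in level, so that this rate does not apply here.

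The copper response differed among the 6 strains for *Hsp68* (adjusted *p* = 0.0212), *Hsp83* (adjusted *p* = 0.0298) and *Hsp23* (adjusted *p* = 0.0432) by the strain by treatment test of edgeR. These are 3 of 9 genes, beside 30.1% of all genes, and the call of *Hsp23* was lost in 21 of 34 omissions of a library. Under a replicate block 1 of the 3, *Hsp68*, was called.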

How the results depend on the processing

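Counts of heat shock genes called as DEGs changed most in the basal comparison, with 3 under DESeq2, 3 without the 9 libraries with accessory gland transcripts (*Hsp70Ba*, *DnaJ-1* and *Hsp83*), 5 without AKA-018, 4 without JUT-008 and 0 without GIM-012, MUN-008 or COR-018, with counts summed per strain, or with at least 10 counts in every library. Over all genes this comparison called 655 in the main fit, 803 under DESeq2 and 107 without those 9 libraries. It called 1093 without AKA-018, 814 without JUT-008, 6 without GIM-012, 21 without MUN-008 and 659 without COR-018. Counts summed per strain gave 532, and at least 10 counts in every library gave 11. In sensitive strains there were 2 under DESeq2, 3 by adjusted *p* alone and 0 without AKA-018 or without the 9 libraries with accessory gland transcripts. All genes called in sensitive strains were 954 in the main fit, 966, 3111, 1177 and 497 at these settings. The class by treatment term called 1 heat shock gene without AKA-018, where all genes called were 1154, against 517 with all strains. Summed over the strains alone the count of 3 became 6 under DESeq2, 5 with library size alone and 6 by adjusted *p* alone. The added calls were in GIM-012 and COR-018, where all genes called were 622 and 1173 in the main fits. They were 1358 and 1337 under DESeq2, and 1030 and 1151 with library size alone. By adjusted *p* alone the added calls were in COR-018, with 2978 of all genes. Leaving out single libraries gave 0 in tolerant strains, 1 to 2 in sensitive strains, 0 for the class by treatment term, 0 to 4 for the strain by treatment term, 1 to 2 in the basal comparison, 9 among strains in controls and 1 to 5 over the strains alone.

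Replicate numbers did not pair the libraries (2 of 15 pairs had r over 0.1, median -0.10). A replicate block left 1 gene called by the strain by treatment term, *Hsp68*, ended the call of *Hsp26* in COR-018 (0.75, adjusted *p* = 0.0555), and changed the number of all genes called to 93 (177 without the block) in tolerant strains, 542 (954) in sensitive strains, 10 (517) for the class by treatment term, 834 (3772) for the strain by treatment term, 206 (1173) in COR-018, 106 (453) in JUT-008, 590 (622) in GIM-012 and 109 (123) in MUN-008, but 607 (470) in MUN-020 and 833 (748) in AKA-018. It turned the sign of *Hsp70Ba* in sensitive strains (0.090) and of *Hsp23* in JUT-008 (0.027).

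Other counts of all genes moved too. Leaving out single libraries gave 143 to 215 in tolerant strains, 837 to 1067 in sensitive strains and 309 to 819 for the class by treatment term. It gave 2130 to 4298 for the strain by treatment term, 381 to 761 in the basal comparison and 9060 to 10247 among strains in controls. The class by treatment term called 1019 under DESeq2 and 0 in sums per strain, and 41, 1395, 1154, 22 and 142 without GIM-012, MUN-020, AKA-018, COR-018 and JUT-008. The basal comparison called 11 with at least 10 counts in every library, and 6, 21, 275 and 1093 without GIM-012, MUN-008, MUN-020 and AKA-018. Copper called 85 in tolerant strains without MUN-008, and 497 and 567 in sensitive strains without COR-018 and JUT-008. Without the 9 libraries with accessory gland transcripts the counts were 497 in sensitive strains, 105 for the class by treatment term and 107 in the basal comparison. DESeq2 called 755 in JUT-008, 259 in MUN-008 and 1358 in GIM-012, and 1 fit to all 34 libraries called 1552 in GIM-012, 93 in MUN-020, 179 in AKA-018 and 891 in JUT-008; library size alone called 1030 in GIM-012, and the filter of 10 counts called 244 in AKA-018. The adjusted *p* alone passed 320 in tolerant strains, 3111 in sensitive strains, 1828 in MUN-020 and 2978 in COR-018.

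Of 1032 refits of single genes 917 kept their direction and side of the threshold, and 32 turned sign, with an adjusted *p* of 0.154 or more. Among values reported above, *Hsp70Ba* in sensitive strains also turned with library size alone (0.033), without JUT-008 (0.18), in the sum of copies (0.51) and in 8 of 17 omissions of a library (-0.22 to 0.28). *Hsp23* in the class by treatment term turned without MUN-020 (0.098) or AKA-018 (0.016), *Hsp26* in the basal comparison without GIM-012 (-0.061) or COR-018 (-0.031), and *Hsp23* in JUT-008 without control replicate 1 (-0.61 to 0.71 over the omissions). The cause was not tested. The omission of libraries with accessory gland transcripts, and the sum of *Hsp70* copies for the basal and class by treatment comparisons, were added after the data were seen.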
